A study of Mus musculus with 4 samples.

Results

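Interleukin 4 signalling reaches a small set of transcriptional regulators in T-helper 2 (Th2) cells, and several of their genes carry an annotated gene on the other DNA strand. Counts were compared for 5 such pairs, namely Il4ra with Gm44876, Stat6 with Nab2, Gata3 with Gm13256, Maf with Gm15655 and Gfi1 with A430072P03Rik. The 10 genes were found by symbol among the 50600 genes of the count tables, and each pair shares exonic bases on opposite strands. In every pair and each of 3 deep libraries the opposite-strand gene had more counts per kb of exon than the regulator, as in 63.4% of the 4097 comparable pairs. The excess was 315-fold to 458-fold for Gm44876, Gm15655 and Gm13256, and 8.28-fold and 9.73-fold for A430072P03Rik and Nab2. These sizes depend on the lengths used. The log2 ratios of the first 3 were 8.30 to 8.84, and 4.44 to 5.90 with the same length for both genes. For A430072P03Rik and Nab2 they went from 3.05 and 3.28 to 2.12 and 2.70. The direction rests on the strand setting of the counts, and no source used here gives the strand of read 1.

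RNA was sequenced from primary Th2 cells of the mouse strain C57BL/6NJ, in a single group of 4 libraries numbered as biological replicates 1 to 4. No other cell type, genotype or treatment is in the labels, and sex and age are not given there, so genes were compared within libraries and libraries with one another. Each library has its own biosample and all 4 name the same donor, so what the p-values measure is only how these samples scatter, and that scatter may be technical. The labels name a protocol for differentiating CD4 T cells, call the assay total RNA sequencing although their library protocol is titled for poly(A) RNA, and leave unexplained a time of 72 h found in the file headers.

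Replicates 1, 3 and 4 held 2388255, 1929880 and 1713199 fragment counts on genes, and replicate 2 held 5016. A floor of 3 counts was 1.26 to 1.75 CPM (counts scaled to library size) in the 3 deep libraries and 598 CPM in replicate 2, so replicate 2 is described apart. On their annotated strands, all 6 T cell genes and all 5 Th2 genes on the lists lay above 1 TPM (transcripts scaled to length and library size), whereas the B cell genes Ms4a1 and Cd79b, the myeloid genes Itgam and Adgre1, the cytotoxic genes Gzma and Prf1, and the mast cell and basophil genes Fcer1a and Mcpt8 had no count. Cd79a of the B cell genes and Cd68 of the myeloid genes did lie above 1 TPM, and the lists summed to 2.05 to 9.84 TPM for B cells, 3.48 to 4.67 for myeloid cells, 0 to 1.14 for cytotoxic cells and 0 to 0.395 for mast cells and basophils. By the same limma test 57.2% of the 10670 genes tested lay above 1 TPM, and 75.7% of those with opposite-strand exons. Genes with exons opposite another gene, 8189 in all, took 90.7%, 94.2% and 91.3% of the counts in replicates 1, 3 and 4. The 9 minus-strand genes among the 37 mitochondrial genes took 83.6%, 83.0% and 77.7% of the mitochondrial counts, although the abundant mitochondrial messenger RNAs are known to come mostly from the plus-strand genes. Fragments were counted where read 1 lay on the strand of the gene, per the file headers, while no source used here gives the strand that read 1 has in these libraries. Counts from a gene's own RNA and counts from RNA of the opposite strand can therefore not be told apart, and every value below is a value of the annotated strand. If read 1 has the opposite strand here, the counts listed for a partner are those of RNA running in the regulator's direction, and the reverse, so the direction of each ratio, the order of levels and the ranks rest on the setting that was used.

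Il4ra encodes the receptor chain that binds interleukin 4, and Stat6 encodes the transcription factor that this receptor activates. Stat6 induces Gata3, the zinc finger factor that opens and activates the Th2 cytokine locus. Maf, a basic leucine zipper factor, activates Il4, and Gfi1, a zinc finger repressor, favours the growth of Th2 cells. Nab2 is a corepressor of the Egr transcription factors. Gm13256, Gm15655 and Gm44876 are annotated as antisense RNAs and A430072P03Rik as a processed transcript, and the sources used here annotate no function for them.

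The 5 overlaps differ in what lies opposite. Gata3 (ENSMUSG00000015619, chr2:9857078-9890034 in mm10, minus strand, 10 exons) shares 155 bases with Gm13256 (chr2:9877256-9878869, plus strand). Of these, 93 are coding bases of Gata3 at chr2:9877352-9877444 and 62 lie in a 5′ untranslated region (UTR) at chr2:9878539-9878600. Il4ra (ENSMUSG00000030748, chr7:125552120-125579474, plus strand) shares 571 bases with Gm44876 (chr7:125570776-125572117, minus strand), of which 44 are coding bases at chr7:125571547-125571590, 17 more are coding in another transcript and the others are retained introns or 3′ UTR. The sequences of both coding overlaps are shown because they are the bases where a fragment of the regulator's messenger RNA and a fragment of the opposite-strand RNA would cover the same positions. They are written 5′ to 3′ from the GENCODE vM21 transcripts on GRCm38, the assembly also named mm10. Capitals mark the bases opposite coding sequence, and the coding strand is given beneath each.
Gm13256 exon 1, chr2:9877256-9877444, plus strand: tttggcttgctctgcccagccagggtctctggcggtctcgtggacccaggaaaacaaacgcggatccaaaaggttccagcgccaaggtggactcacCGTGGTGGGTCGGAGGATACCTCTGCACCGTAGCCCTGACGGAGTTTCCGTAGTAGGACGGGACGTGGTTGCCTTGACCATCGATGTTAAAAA
Gata3 coding strand, chr2:9877352-9877444, minus strand: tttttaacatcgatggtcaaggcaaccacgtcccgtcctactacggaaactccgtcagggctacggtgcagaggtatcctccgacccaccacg
Gm44876 end of exon 1, chr7:125571547-125571650, minus strand: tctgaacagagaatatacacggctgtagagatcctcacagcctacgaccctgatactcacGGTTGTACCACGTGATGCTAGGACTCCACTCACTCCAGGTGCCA
Il4ra coding strand, chr7:125571547-125571590, plus strand: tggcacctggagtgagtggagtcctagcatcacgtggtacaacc

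In both opposite-strand exons the 5 bases before the capitals read ctcac. Their reverse complement, gtgag, is the start of the regulator's intron, where a splice donor has its GT. The exons of Gm13256 and Gm44876 thus run across an exon and intron border of the regulator on the other strand. In all, 365 exonic bases of Gm13256 lie opposite introns of Gata3, and 99 of Gm44876 lie opposite introns of Il4ra.

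The other overlaps lie in untranslated regions. Stat6 (ENSMUSG00000002147, chr10:127642986-127660957, plus strand) and Nab2 (ENSMUSG00000025402, chr10:127660918-127668568, minus strand) meet tail to tail over 40 bases of the Stat6 3′ UTR, and 2901 of the exonic bases of Nab2 lie beyond Stat6. Gm15655 (chr8:115705078-115707233, plus strand) lies whole within the first exon of Maf (ENSMUSG00000055435, chr8:115682942-115707794, minus strand), with 401 bases opposite a 3′ UTR and 39 opposite a 5′ UTR. A430072P03Rik (chr5:107725157-107728801, plus strand) crosses the 5′ end of Gfi1 (ENSMUSG00000029275, chr5:107716657-107726036, minus strand) and overlaps 101 bases of its 5′ UTR. Of the regulators' exonic bases 0.909% to 9.51% lie opposite the partner, so most of each regulator's exonic length is free of it.

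**Figure D1:**
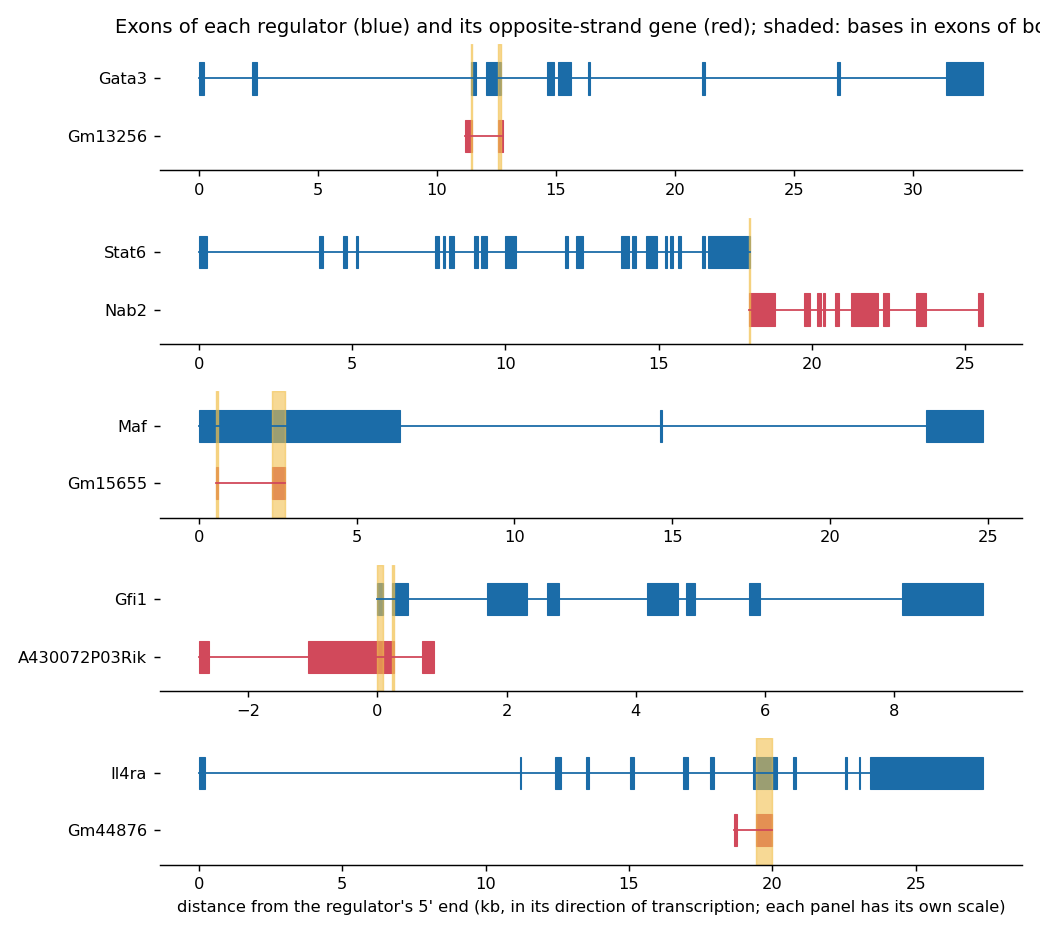
Exons (boxes) and introns (lines) of each regulator in blue and its opposite-strand gene in red, against the distance in kb from the regulator's 5′ end in its direction of transcription, with a scale of its own in each panel. Shading marks bases in exons of both genes: Gm15655 lies whole within the first exon of Maf, Nab2 touches Stat6 by 40 bases at the 3′ end, and A430072P03Rik crosses the 5′ end of Gfi1.

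The partners of Gata3 and Gfi1 also cover bases upstream of a start of these regulators. RefSeq promoters (GRCm38.p6) matched 5 of the 10 genes. For Gata3 the 250 bases before the RefSeq start, chr2:9878601-9878850, lie whole within exon 2 of Gm13256 on the other strand. The window is printed on the strand of Gata3 because it lies within an exon of Gm13256, although no count was restricted to these bases. Capitals mark matches to GGGCGG, the letters of the GC box.
Gata3 promoter, chr2:9878601-9878850, minus strand: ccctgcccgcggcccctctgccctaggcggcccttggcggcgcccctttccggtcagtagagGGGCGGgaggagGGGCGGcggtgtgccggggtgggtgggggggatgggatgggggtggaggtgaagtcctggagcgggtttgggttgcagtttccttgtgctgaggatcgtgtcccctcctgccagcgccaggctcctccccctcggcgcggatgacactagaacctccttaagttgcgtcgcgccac

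Searched on both strands, the GC box GGGCGG matched 2 times in this window, and 32.7% of 32851 RefSeq promoters hold at least 1 match in a window of the same length and place. The core letters GATA of GATA factors, AATC of Gfi1, TTCNNNNGAA of Stat6 and the TATA box TATAAA were not in it, and they are in 53.6%, 69.0%, 5.85% and 12.4% of the promoters. For Gfi1 a window of 149 bases, chr5:107725806-107725954, lies within an exon of A430072P03Rik and holds none of the 5 motifs, which 3.16% to 50.9% of promoters hold in such a window.

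Il4ra, the receptor, had 82, 21 and 34 counts in replicates 1, 3 and 4, and Gm44876 had 1523, 1518 and 1155. Per kb of exon these were 13.7, 3.50 and 5.66 counts for Il4ra and 2273, 2266 and 1724 counts for Gm44876. The groups of values lay far apart, and replicate 3 held the fewest Il4ra counts with nearly the same Gm44876 count as replicate 1. The density of Gm44876 was 166, 648 and 304 times that of Il4ra in the 3 libraries. Averaged on the log2 scale the ratio was 8.30 (SE 0.41), a 315-fold difference (limma over all tested pairs, Benjamini-Hochberg adjusted p = 7.03e-05). In the 3 libraries Il4ra supplied 5.11% (Wilson 95% interval 4.13 to 6.30), 1.36% (0.894 to 2.08) and 2.86% (2.05 to 3.97) of the pair's counts. The interval of replicate 3 did not reach that of replicate 1, so these libraries differed by more than the counting error that independent fragments would have. These intervals and the floors cover counting error only, because the fragments carry no molecular identifiers and may not be independent.

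Stat6, the signal transducer below this receptor, had 67, 17 and 30 counts in replicates 1, 3 and 4. Nab2 had 223, 211 and 209. In CPM, Nab2 spread over 1.31-fold across the libraries and Stat6 over 3.18-fold. Densities were 15.2, 3.86 and 6.82 counts per kb for Stat6 and 75.8, 71.7 and 71.1 for Nab2, so the ratio was 4.98, 18.6 and 10.4. The mean log2 ratio was 3.28 (SE 0.42), or 9.73-fold, with a limma adjusted p of 0.00138. In share of pair counts Stat6 held 23.1% (18.6 to 28.3), 7.46% (4.71 to 11.6) and 12.6% (8.94 to 17.4) in replicates 1, 3 and 4, the largest share of a regulator in replicate 1 among the 5 pairs.

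Nab2 is the only partner that encodes a protein, and it has opposite-strand genes of its own besides Stat6. Both were looked up after the values of Nab2 were seen. Gm16229, an antisense RNA whose exons overlap 1050 exonic bases of Nab2, had 2823, 2325 and 2132 counts in replicates 1, 3 and 4. Its density was 26.8 times that of Nab2, with a log2 ratio of 4.74 (SE 0.16, limma adjusted p = 3.77e-05). Nemp1, which encodes a nuclear envelope protein and overlaps Nab2 by 151 bases at the 5′ end of Nab2, had 67, 42 and 65 counts, and Nab2 exceeded it per kb by 3.32 on the log2 scale (SE 0.24, limma adjusted p = 0.000209). Nab2 therefore lay between its neighbours: above Stat6 and Nemp1, which it meets over 40 and 151 bases, and below Gm16229.

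Gata3, the lineage-defining factor, had 61, 16 and 40 counts in replicates 1, 3 and 4. Gm13256 had 2593, 1824 and 1867 over an exonic length of only 520 bases. Per kb that was 15.3, 4.02 and 10.1 counts for Gata3 against 4987, 3508 and 3590 for Gm13256, with no overlap. The ratio was 325, 872 and 357, which gave the highest mean log2 ratio of the 5 pairs at 8.84 (SE 0.34, 458-fold, limma adjusted p = 4.15e-05). Gata3 supplied 2.30% (1.79 to 2.94), 0.870% (0.536 to 1.41) and 2.10% (1.54 to 2.84) of the pair's counts. A second gene, 9230102O04Rik, overlaps Gata3 on the same strand and had 71, 63 and 76 counts, and how fragments common to both were counted is not known, so the Gata3 counts are uncertain.

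Maf, the activator of Il4, had 6, 3 and 7 counts in replicates 1, 3 and 4, with the value in replicate 3 at the floor. Gm15655 had 137, 145 and 87. Maf has the longest exons of the regulators, 8241 bases, and its density was 0.728, 0.364 and 0.849 counts per kb against 311, 330 and 198 for Gm15655. At 428, 905 and 233 the ratio was of the size found for Gata3, with a mean log2 ratio of 8.67 (SE 0.43, 407-fold, limma adjusted p = 7.09e-05). With 16 Maf counts in all, the ratio of the pooled counts per kb was 432 with an exact 95% interval of 262 to 764, the widest in proportion of the 5. That interval covers counting error only. The ratios of replicates 3 and 4 lay outside it, and that of replicate 1 lay inside. The share of Maf in the pair's counts was 4.20% (1.94 to 8.85), 2.03% (0.692 to 5.79) and 7.45% (3.65 to 14.6), and these intervals overlapped.

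Gfi1, the repressor, was the regulator with the most counts, 99, 65 and 92 in replicates 1, 3 and 4. A430072P03Rik had 412, 358 and 331. Densities were 31.1, 20.4 and 28.9 counts per kb for Gfi1 and 247, 215 and 199 for A430072P03Rik. The ratio was 7.96, 10.5 and 6.88, the narrowest spread of the 5 pairs, and the mean log2 ratio was 3.05 (SE 0.22, 8.28-fold, limma adjusted p = 0.000191). Gfi1 supplied 19.4% (16.2 to 23.0), 15.4% (12.2 to 19.1) and 21.7% (18.1 to 25.9) of the pair's counts.

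**Figure D2:**
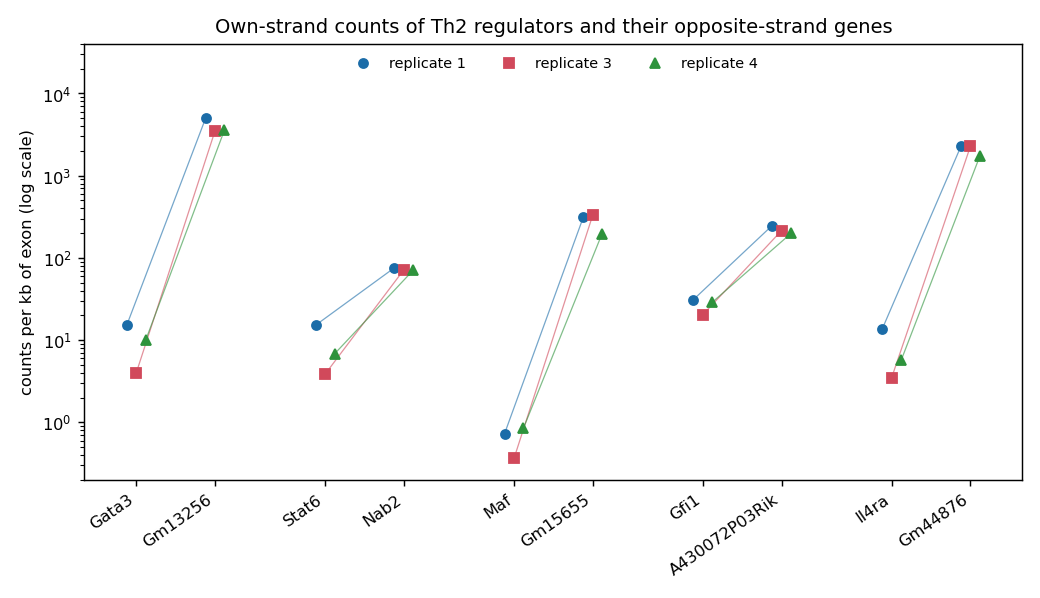
Counts per kb of exon (log scale) of each regulator and its opposite-strand gene in replicates 1, 3 and 4, with a line joining both genes of a pair within a library. Every line rises, over a longer span for Gata3, Maf and Il4ra than for Stat6 and Gfi1, and replicate 3 (squares) is the lowest point of every regulator.

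In all, the partner was denser and passed the limma test in 5 of 5 pairs, against 61.4% of the 4097 pairs of a protein-coding gene and an opposite-strand gene that had 30 or more counts (29.0% passed with the partner thinner). The densities of gene and partner did not overlap between libraries in any of the 5, as in 61.2% of all pairs. With a partner that is not protein-coding the background was 85.3%, which is the fitting figure for 4 of the 5, and with a protein-coding partner, as for Stat6, it was 44.1%. Such a count is thus near what most pairs of this kind showed. By size the pairs of Gata3, Maf and Il4ra ranked 299, 335 and 429 of 4097, and Stat6 and Gfi1 ranked 1895 and 1950. The median log2 ratio over pairs with a partner that is not protein-coding was 6.11, with quartiles at 3.14 and 8.13, so Gata3, Maf and Il4ra lay above the upper quartile and Gfi1 just under the lower. For protein-coding partners the median is 0 by construction, since each such pair enters in both orientations, and the upper quartile was 3.42, which leaves Stat6 with Nab2 inside it.

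An exact permutation test that flips the signs of the 3 libraries' log2 ratios, two-sided, gave p = 0.25 for each pair, the smallest that 3 libraries allow, with the partner denser in 3 of 3. Pooled over the libraries, the ratio per kb was 411 (exact 95% interval 342 to 498) for Gata3, 274 (231 to 328) for Il4ra, 8.44 (6.91 to 10.4) for Stat6 and 8.22 (7.17 to 9.46) for Gfi1. These exact intervals cover counting error only and leave out the spread between libraries. The Gata3 ratios of replicates 1 and 3, 325 and 872, lay outside its interval, and that of replicate 4, 357, lay inside. The sizes depend on the length used. With the same length given to both genes of a pair, length cancels and the ratio is that of the whole-gene counts. The log2 ratios were then 5.90 for Gata3, 4.44 for Maf, 5.14 for Il4ra, 2.70 for Stat6 and 2.12 for Gfi1, all still past the limma test. No count was restricted to the shared bases.

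**Figure D3:**
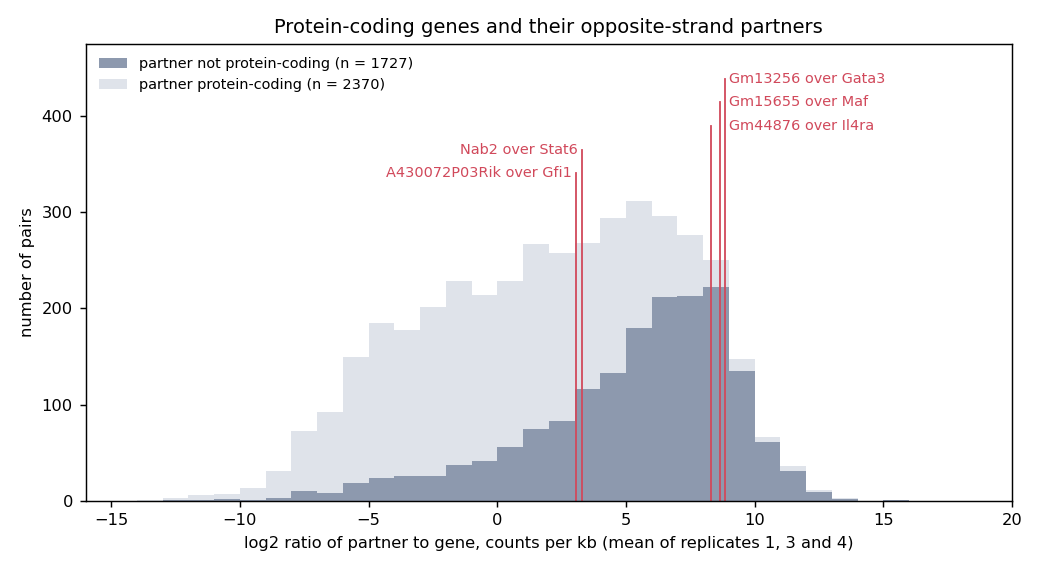
Stacked histogram of the log2 ratio of partner to gene in counts per kb for the 4097 tested pairs (bins of width 1), split by whether the partner is protein-coding, with the 5 pairs as red lines. Nab2 over Stat6 and A430072P03Rik over Gfi1 stand near 3, and the other 3 pairs stand between 8.30 and 8.84 in the upper part of the histogram.

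The pairs whose ratios ran most like each of these across the 3 libraries were found by Euclidean distance over all 4097 pairs. Il4ra was nearest to Adam19 with Gm16034, at a distance of 0.112 on the log2 scale, and then to Rcn3 with Gm45669 at 0.305. Nearest to Stat6 were Ap5m1 with Exoc5 at 0.211 and Mapk8ip1 with 1700029I15Rik at 0.402, and nearest to Gata3 were Parp4 with Gm16573 at 0.215 and Supt5 with Gm44709 at 0.234. For Maf they were Golga7 with Gm45412 at 0.267 and Wrnip1 with D930007J09Rik at 0.320, and for Gfi1 Supt20 with Gm21958 at 0.120 and Zscan29 with Tubgcp4 at 0.129. As points these are 3 libraries each, so likeness over so few values describes the ratios alone.

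In TPM, which corrects for length and depth, the 10 genes spanned several orders of magnitude. Gm13256 stood at 2858 ± 259 TPM (SD, n = 3) and ranked 51 of 50600 genes, followed by Gm44876 at 1489 ± 150 TPM. Gm15655 at 198 ± 38.2 TPM and A430072P03Rik at 157 ± 9.78 TPM overlapped in range, with Gm15655 higher in 2 of 3 libraries. Nab2 came next at 52.6 ± 7.28 TPM, and the highest regulator, Gfi1, stood at 19.3 ± 4.77 TPM. No regulator reached the TPM of any of the partners.

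Gata3 at 6.87 ± 3.42 TPM, Stat6 at 5.89 ± 3.15 TPM and Il4ra at 5.17 ± 2.83 TPM kept this order in 3 of 3 libraries, although their ranges overlapped. Maf was last at 0.473 ± 0.228 TPM. Set against 1 TPM with limma, 9 of the 10 genes lay above, against 57.2% of the 10670 genes tested, 75.7% of those with opposite-strand exons and 41.9% of those without. None lay below, against 2.45% of the genes tested. For the regulators the log2 level over 1 TPM was 4.11 (SE 0.19, adjusted p = 1.84e-06) for Gfi1, 2.50 (SE 0.37, adjusted p = 0.00113) for Gata3, 2.29 (SE 0.37, adjusted p = 0.00158) for Stat6 and 2.11 (SE 0.37, adjusted p = 0.00259) for Il4ra by limma. Maf, at -1.02 (SE 0.46, limma adjusted p = 0.101), passed in neither direction, and with a pseudocount of 1 it passed as below 1 TPM, at -0.45 (limma adjusted p = 0.0429).

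Spread over the libraries differed between the regulators and their partners. The coefficient of variation of CPM was 54.6% for Il4ra, 53.2% for Stat6, 49.3% for Gata3, 47.0% for Maf and 23.5% for Gfi1. Among the partners it was 20.6% for Gm15655, 13.3% for Nab2, 11.1% for Gm44876, 7.92% for Gm13256 and 5.69% for A430072P03Rik. The counts behind the partners are larger, so counting error makes up less of their spread. Summed over the 5 regulators the level was 132, 63.2 and 118 CPM in replicates 1, 3 and 4, whereas the sum over the partners was 2047, 2102 and 2130 CPM.

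Each of the 5 regulators had its lowest CPM in replicate 3, and Gata3 and Il4ra passed the test there. In CPM Gata3 stood at 25.5, 8.29 and 23.3 in replicates 1, 3 and 4, and Il4ra at 34.3, 10.9 and 19.8. Against the other 2 libraries Gata3 was lower in replicate 3 by a log2 fold change of -1.42 (SE 0.47, adjusted p = 0.0250) and Il4ra by -1.20 (SE 0.43, adjusted p = 0.0393) in edgeR's quasi-likelihood test. Stat6, at 28.1, 8.81 and 17.5 CPM, had a like value of -1.25 (SE 0.47) with an adjusted p of 0.0517 in edgeR, which misses the threshold. Gfi1, at 41.5, 33.7 and 53.7 CPM, had -0.35 (SE 0.31, adjusted p = 0.469), and Maf had too few counts for this test.

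Of the partners, Gm44876 rose in replicate 3. Its CPM was 638, 787 and 674, a log2 fold change of 0.40 (SE 0.13, edgeR adjusted p = 0.0225). Gm13256 had -0.07 (SE 0.12), Nab2 0.16 (SE 0.22), A430072P03Rik 0.16 (SE 0.18) and Gm15655 0.61 (SE 0.27), with edgeR adjusted p from 0.106 to 0.742. The ratio of partner to regulator was highest in replicate 3 in all 5 pairs. In this library 12.4% of the 6922 genes tested were called lower and 2.79% higher, so 2 lower and 1 higher among the 9 tested members stand in a library that differs widely.

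**Figure D4:**
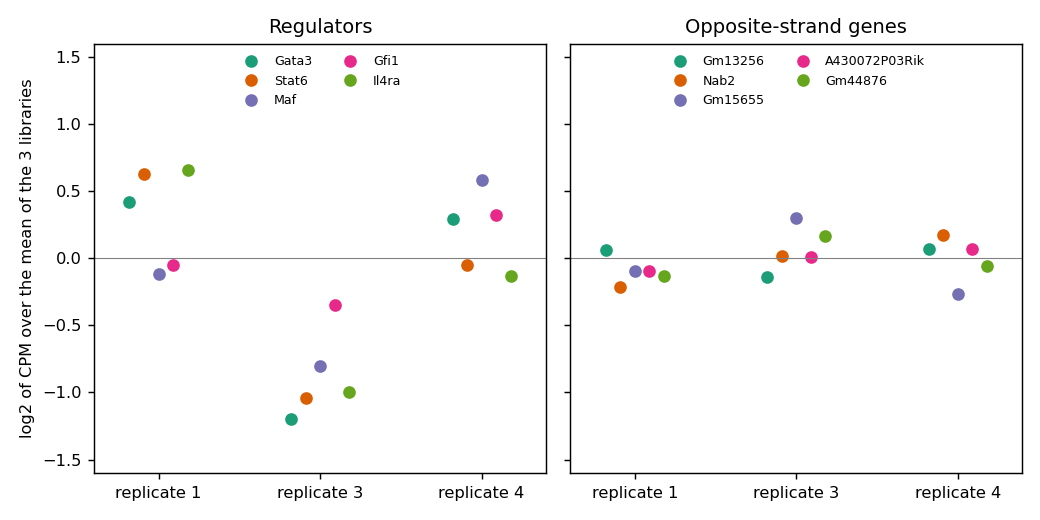
CPM of each gene relative to its mean over replicates 1, 3 and 4 on the log2 scale, for the 5 regulators (left) and their opposite-strand genes (right). All 5 regulators lie below 0 in replicate 3, Gata3, Stat6 and Il4ra by about 1 or more, while the partners stay within about 0.3 of 0 in every library.

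Other values moved with replicate 3. Genes without opposite-strand exons had a median log2 fold change of -0.82 there (3060 genes) and genes with them 0.12 (3862 genes), and all members belong to the second class. The summed level of the 6 T cell markers was 108, 36.3 and 121 TPM in replicates 1, 3 and 4 and that of the 5 Th2 markers 181, 104 and 181 TPM. The part of these in the result was not tested. In bulk RNA, fewer cells of a type and less RNA per cell cannot be told apart. The calls depended on the tool and the scaling, while the sizes for Gata3 and Il4ra moved little with DESeq2 or RLE scaling. DESeq2 called 0 of the 8 members to which it gave an adjusted p in replicate 3, with -1.32 for Gata3 and -1.07 for Il4ra. With RLE scaling edgeR called 1 member, with -1.31 for Gata3 and -1.09 for Il4ra. The sizes moved more with another scaling. Scale factors from genes without opposite-strand exons, chosen after the data were seen, moved the median of all genes in replicate 3 from -0.11 to 0.72. Gata3 then stood at -0.59 (adjusted p = 0.324) and Il4ra at -0.36 (adjusted p = 0.551) by edgeR, both still below that median, and Gm13256 at 0.77 lay close to it.

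In replicates 1 and 4 no member was called by edgeR. Over all genes 0.0289% were called higher and 0 lower in replicate 1, and 0.0144% higher and 0.0289% lower in replicate 4. At an unadjusted p under 0.05 edgeR had 106 genes higher and 25 lower in replicate 1, and 25 higher and 12 lower in replicate 4, with 0 members among them in either. DESeq2 also called 0 of the 9 members in both libraries.

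The 68 listed genes around these regulators were read on the same scale. Of the interleukin 4 and common gamma chain list, which holds the cytokines, receptor chains, Janus kinases and their inhibitors, 13 of the 16 members tested of 18 lay above 1 TPM by limma and 0 below. Il13, the mucus-inducing cytokine, stood at 65.7 ± 41.3 TPM, Il2ra at 57.1 ± 31.4 TPM, Il4 at 40.0 ± 7.95 TPM and the kinase gene Jak2 at 30.3 ± 17.3 TPM (SD, n = 3). None of these 4 has opposite-strand exons. Il13ra1, the alternative partner chain of the Il4ra protein, had no count.

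Among partners and opponents of Gata3, 12 of 17 tested members of 19 lay above 1 TPM and 0 below. They include Chd4, a chromatin remodelling ATPase, at 14.2 ± 6.88 TPM, its complex partners Mta2 at 11.3 ± 3.81 TPM and Mbd2 at 7.13 ± 2.83 TPM, and Tcf7, a T cell factor that induces Gata3, at 9.20 ± 3.68 TPM. For the Egr and Nab genes, 2 of 4 tested lay above, Egr1 at 3.77 ± 1.43 TPM and Egr2 at 3.05 ± 1.44 TPM. Both encode zinc finger factors that Nab2 represses, and both stood well under the 52.6 TPM of Nab2.

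Of the Maf family and its partners, 5 of 12 tested members of 16 lay above 1 TPM and 0 below. Irf4, which acts with Batf, stood at 101.5 ± 10.5 TPM, the small Maf gene Maff at 47.6 ± 6.35 TPM and Batf at 36.8 ± 19.5 TPM, all far above Maf itself. Mafa, Nrl and Bach1 had no count. Of the Gfi1 paralogue and its corepressors, 4 of 6 tested members of 7 lay above, namely the deacetylase genes Hdac1 at 13.5 ± 6.17 TPM and Hdac2 at 9.56 ± 5.23 TPM, the demethylase gene Kdm1a at 5.84 ± 0.858 TPM and the methyltransferase gene Ehmt2 at 4.24 ± 1.65 TPM, while Gfi1b had no count. These shares, from 5 of 12 to 13 of 16, stand beside 57.2% over all genes tested.

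Opposite-strand exons are found in 21 of the 68 listed genes, in 24 tested pairs. The partner was denser in 19 and thinner in 3 by limma, against 61.4% and 29.0% over all pairs, and the median log2 ratio was 6.45 against 2.66. Of these pairs 18 have a partner that is not protein-coding, and in 16 of the 18 it was denser, with a median log2 ratio of 6.88, beside 85.3% and a median of 6.11 over all pairs of that kind. Cish, an inhibitor of cytokine receptor signalling, stood at 5.68 ± 1.46 TPM and its opposite genes Gm17040 and Gm17041 at 1826 ± 108 and 17194 ± 650 TPM. Ptpn6, a phosphatase that restrains the same receptors, stood at 12.9 ± 5.22 TPM with Gm20531 at 1493 ± 96.9 TPM. Jund, an AP-1 factor gene, stood at 37.6 ± 17.5 TPM with Gm11175 at 15514 ± 2661 TPM. The log2 ratios were 8.35 and 11.58 for Cish, 6.92 for Ptpn6 and 8.76 for Jund, beside 8.30 to 8.84 for Gata3, Maf and Il4ra. Bcl6, the regulator of follicular helper cells, had 3 counts in all against 58 of Gm37419.

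Some pathway genes went the other way. Junb stood at 129 ± 48.4 TPM, and Prdx2 on its other strand was thinner by a log2 ratio of -3.02 (limma adjusted p = 0.000480). Foxp3, the regulator of regulatory T cells, stood at 91.2 ± 0.698 TPM against 0.940 ± 0.370 TPM for Ccdc22, a log2 ratio of -6.53 (limma adjusted p = 5.73e-05), and its other partner Gm36995 had no count. Zbtb7b, which directs cells to the CD4 lineage, and Gm15417 had a log2 ratio of -0.70 that did not pass (limma adjusted p = 0.209).

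**Figure D5:**
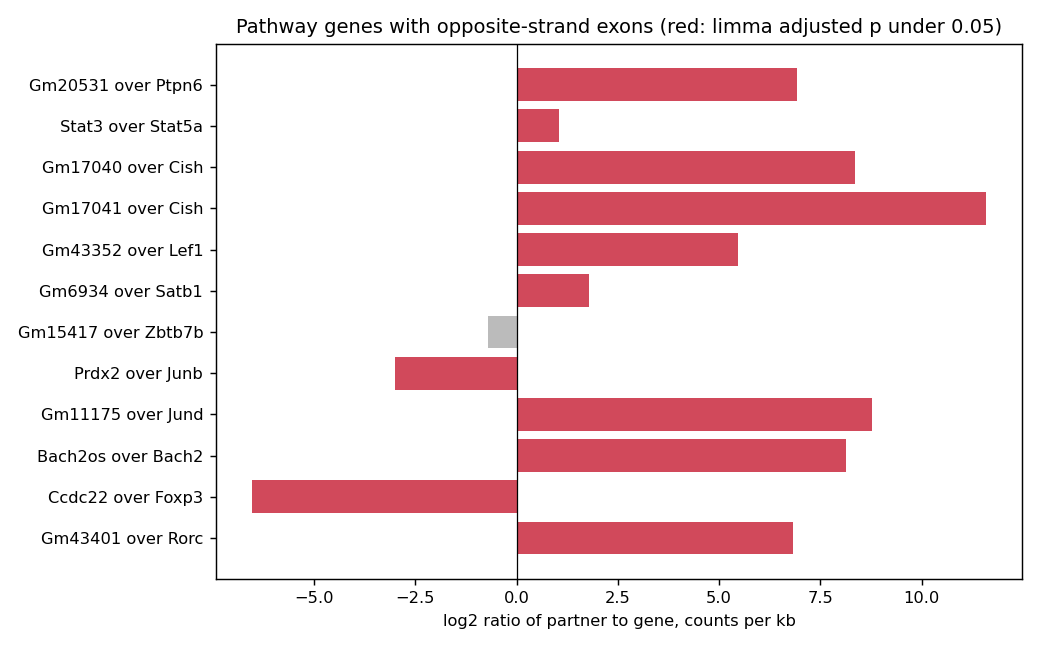
Log2 ratio of partner to gene in counts per kb (mean of replicates 1, 3 and 4) for the listed pathway genes with opposite-strand exons that were named by level and had more than 3 counts in both genes. Bars to the right mean a denser partner: Gm17041 over Cish reaches 11.58, while Prdx2 over Junb and Ccdc22 over Foxp3 point left at -3.02 and -6.53.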

How the data were processed

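Raw fragment counts per gene were deposited by the authors, 1 library per file, made from STAR alignments to mm10 with featureCounts 1.4.6-p4 and GENCODE vM13, per the file headers. Only fragments with both mates mapped were counted, and the strand option was 1, which takes read 1 as lying on the gene's strand, per the file headers. No source used here names the library kit. Counting read 1 on 1 strand leaves the fragments of the other strand uncounted unless a gene is annotated there.

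Gene identifiers were matched to symbols and biotypes in GENCODE vM21, and 224 of the 50600 identifiers had none there. The exons of all 10 members in the files equal those of vM21. Overlaps of exons on opposite strands were found with bedtools 2.31.1, in 5464 pairs of a protein-coding gene and another gene, of which 4097 had 30 or more counts over replicates 1, 3 and 4. The log2 ratio of counts per kb, with 0.5 added to each count, was tested over these pairs with limma 3.58.1 (intercept, trended prior). TPM was computed from counts and exonic lengths and log2(TPM + 0.1) set against 1 TPM with limma for genes with 10 or more counts. All 10 members passed this filter. Each library was set against the other 2 with the quasi-likelihood test of edgeR 4.0.16 (TMM scaling, mean count of 10 or more, R 4.3.3), in which the single library is taken to have the spread of the other 2. Maf did not pass this filter, which leaves 9 members. Its results speak of libraries and not of conditions. As an alternative DESeq2 1.42.0 was run. P-values were adjusted by Benjamini-Hochberg over all genes or pairs tested, at 0.05, and SE is the standard error. Python 3.11.15 with pandas 2.3.3, numpy 2.4.6, scipy 1.17.1 and matplotlib 3.10.9 was used for the rest. The tests were also run on simulated counts with the same dispersion for every gene and no shift of a whole library. That does not check them for a library that differs as widely as replicate 3.

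The named genes were all members, the other genes opposite the regulators, up to 4 listed genes at 1 TPM or more without opposite-strand exons and up to 3 with them by mean TPM, and the 2 nearest pairs of each pair. Results for a few listed genes are not reported here. The members, lists and tests were chosen with earlier results of these data known.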

Additional observations from a re-analysis of the deposited data

Results flagged for a closer look

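In replicate 2, with 5016 counts in all, Gfi1 had 1 count and A430072P03Rik had 4. Converted to TPM these were 96.3 for Gfi1 and 736 for A430072P03Rik, each so far above the other 3 libraries that it stood apart from them by its gap over the range of 4 values. At this depth a single count of Gfi1 is 96.3 TPM, so any count of it there lies above the other 3 libraries. A chance rate for such a gap would need libraries of like depth, so none is given. For Gfi1, 1 count more or less would move the value by its whole size.

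Replicate 2 was not used in the comparisons, and it still held 4 counts of A430072P03Rik and 6 counts of Gm44876, above the floor of 3 counts. Gm13256 had 3 counts there, at the floor. No regulator other than Gfi1 had a count in it.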

How the results depend on the processing

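The partner stayed denser and past the threshold in all 5 pairs under each setting tried for the pair ratio, leaving out each replicate included; with partners that are not protein-coding alone, Stat6 with Nab2 could not enter. That setting called 1472 pairs with the partner denser and 143 thinner, since fewer pairs were tested. With all 4 libraries 5 members lay above 1 TPM in place of 9; 8 of the 10 members had 3 counts or fewer in replicate 2.

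The comparison of replicate 3 with the others depended on the settings. Of the members tested 3 were called, and 1 with all 4 libraries, 1 with RLE scaling, 1 with a minimum of 1 count, 0 with DESeq2 (which gave Stat6 no adjusted p) and 5 with scaling on genes without opposite-strand exons, added after the data were seen. The 5 were the partners, so Gata3 and Il4ra were not among them. Over all genes 1051 were called, and 591 with RLE scaling, 56 with DESeq2 and 2927 with the added scaling, which moved the median of all genes from -0.11 to 0.72 on the log2 scale. Gm13256 turned from -0.07 to 0.075 with all 4 libraries, 0.038 with DESeq2, 0.038 with RLE scaling, 0.014 with a minimum of 1 count and 0.77 with the added scaling, and Gfi1 turned from -0.35 to 0.48 with the last; against the median of all genes Gfi1 stayed below. Gata3 missed the threshold at -1.31 with RLE scaling, -1.34 with a minimum of 1 count and -1.32 with DESeq2 (adjusted p 0.0657, 0.0731 and 0.415), sizes close to the -1.42 reported. Il4ra did so at -1.09, -1.12 and -1.07 with these and -1.18 with all 4 libraries (adjusted p 0.105, 0.122, 0.485 and 0.0698), beside -1.20. Gm44876 did so at 0.42 with all 4 libraries and 0.50 with DESeq2 (adjusted p 0.576 and 0.204), beside 0.40. In replicate 4 the count of genes called went from 3 to 0 with DESeq2 and to 0 with the added scaling, and in replicate 1 from 2 to 1 with a minimum of 1 count. The cause was not tested. Leaving out a replicate could not be run for this comparison, since 1 library against 1 leaves no residual degrees of freedom. No paired analysis was possible because all libraries form 1 group. Depth limits Maf most, with 16 counts in all.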
